A study of Homo sapiens with 6 samples.

Results

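The genes described here are 10 immediate early genes, chosen by symbol: FOS, FOSB, FOSL1, FOSL2, JUN, JUNB, JUND, EGR1, IER3 and ATF3. All 10 symbols were found among the 23228 genes of the count tables, and 9 of them had enough reads to be tested. RNA was sequenced from RL95-2, an established human endometrial carcinoma line, after 24 h in serum-free medium. The 3 ADP-CM libraries came from cells in equal parts of RPMI and ADP-CM, the medium in which mature adipocytes from human visceral fat had been kept. The 3 control libraries came from cells in equal parts of RPMI and DMEM, both serum-free. The control DMEM had not been conditioned by any cell, so adipocyte products and the use of the medium by those cells cannot be told apart. The comparison asks how these genes stood after a day in ADP-CM.

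Immediate early genes are switched on by growth factors, cytokines and stress without new protein synthesis, usually as a brief pulse. Proteins of the FOS and JUN families, and ATF3, pair through leucine zippers to form AP-1 and related dimers, which bind DNA elements such as TGACTCA. FOS proteins bind DNA only with a partner such as a JUN protein, while JUN proteins can also pair with each other. EGR1 is a zinc finger factor induced through SRF and its ERK-activated cofactors, and IER3 encodes a small stress- and NF-kB-inducible protein that modulates survival. In epithelial cancers AP-1 is known for control of proliferation, migration and invasion. A single time of 24 h was sampled, so any earlier pulse was not measured.

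Promoter windows are shown for 3 genes that behaved differently here: JUN, which was higher in ADP-CM, EGR1, which was lower, and FOS, which was near the limit of detection in both groups. Each is the 250 bases before the annotated start in RefSeq, and capitals mark every match to the motifs searched.
JUN (GRCh38.p14, chr1:58784048-58784297, minus strand): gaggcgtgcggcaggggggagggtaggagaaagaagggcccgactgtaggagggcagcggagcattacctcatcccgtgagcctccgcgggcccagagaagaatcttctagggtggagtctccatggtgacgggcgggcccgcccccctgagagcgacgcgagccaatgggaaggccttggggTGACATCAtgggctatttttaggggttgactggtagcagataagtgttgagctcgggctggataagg
EGR1 (GRCh38.p14, chr5:138465229-138465478, plus strand): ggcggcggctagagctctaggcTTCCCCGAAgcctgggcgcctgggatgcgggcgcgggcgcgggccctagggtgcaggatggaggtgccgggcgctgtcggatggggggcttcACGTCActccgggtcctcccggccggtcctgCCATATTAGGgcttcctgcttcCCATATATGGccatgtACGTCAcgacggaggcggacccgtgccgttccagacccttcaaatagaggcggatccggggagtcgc
FOS (GRCh38.p14, chr14:75278578-75278827, plus strand): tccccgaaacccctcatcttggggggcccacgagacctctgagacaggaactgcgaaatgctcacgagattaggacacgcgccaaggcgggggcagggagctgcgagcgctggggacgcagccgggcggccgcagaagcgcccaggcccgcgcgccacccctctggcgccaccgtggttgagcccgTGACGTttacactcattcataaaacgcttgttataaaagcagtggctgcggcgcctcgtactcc
The motifs were searched on both strands. They were TGANTCA (AP-1), TGACGTCA with its core TGACGT (cAMP response element), and the AP-1-like TGACATCA, 1 base from TGACGTCA. The others were GCGGGGGCG and GCGTGGGCG (EGR1), the CArG box (SRF) and TTCNNNGAA (STAT). The JUN window held 1 TGACATCA, 67 to 60 bases before the start, a sequence present in 2.37% of 35116 promoter windows of the same length. The EGR1 window held 2 CArG boxes, CCATATTAGG and CCATATATGG, and 1.16% of all windows held at least 1. It also held 2 TGACGT cores and 1 TTCNNNGAA match, which 7.1% and 6.57% of all windows held. In FOS the search found 1 TGACGT core, 64 to 59 bases before the start. Sequence farther than 250 bases before the start was not searched in any gene, so a motif missing from a window may lie upstream. None of the 3 windows held TGANTCA, TGACGTCA or either EGR1 motif, which 6.57%, 1.65%, 4.72% and 0.72% of all windows held. Of the other windows, FOSB and FOSL2 held 1 TGACGT each, JUND held 1 TGACGTCA and a further TGACGT, ATF3 held 1 TGACATCA and JUNB held none of the motifs. The table matched 8 of the 10 genes, without FOSL1 and IER3.

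Each library held 16262614 to 18363033 gene reads, of which 11076 to 12821 fell on the 10 genes. Counts were scaled by TMM to CPM (reads per 1000000 gene reads), and the groups were set against each other with edgeR's quasi-likelihood (QL) test. The 12663 tested genes shared 1 Benjamini-Hochberg adjustment, and a gene was said to have changed at an adjusted value under 0.01. The labels do not say whether the replicates were separate cultures, so p-values measure the spread between these samples, which may be technical. All 7 epithelial markers were tested and read at 5509 to 5663 CPM in sum in control and 4788 to 4874 in ADP-CM, with KRT19, KRT8, CDH1, KRT18 and CLDN4 lowered. Of the other cell types, the 8 adipocyte markers summed to 10.1 to 10.7 CPM in control and 10.4 to 12.2 in ADP-CM. Most of this came from CFD, with means of 9.46 CPM in control and 10.4 in ADP-CM, while ADIPOQ and LEP had 0 reads in every library. The 6 stromal markers summed to 61.5 to 68.4 CPM and 78.3 to 79.1, mostly from COL1A1, which was raised. The 5 leukocyte markers summed to 6.96 to 8.17 and 9.82 to 11.9, mostly from CD68, which was raised. PTPRC had at most 1 read in a library. The 4 endothelial markers summed to 60.7 to 66.4 and 54.5 to 61.6, mostly from CDH5, and KDR had 0 reads. Neither CFD nor CDH5 was past the threshold. The part of these marker differences in the results was not tested. Because RNA came from whole cultures, fewer cells carrying a transcript and less of it per cell cannot be told apart.

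Genes of the set moved in both directions with ADP-CM. IER3, FOSL1 and JUN were raised and EGR1, ATF3, JUNB and FOSL2 were lowered, while JUND and FOS were not past the threshold and FOSB was not tested. These are 7 of the 9 tested genes, where 26.5% of all tested genes changed, 13.5% upward and 13% downward. Most of the changes were small. Only IER3 and EGR1 also passed a fold change of 1.5, which 2.27% of all tested genes did, 1.14% upward and 1.14% downward. The libraries of the groups did not overlap for 7 of the 9 tested genes, against 45.5% of all tested genes. These were the 7 changed genes, called on the same counts, so the lack of overlap adds no separate support. The median log2 fold change of the 9 tested genes was -0.10, and that of all tested genes was -0.0023.

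**Figure D1:**
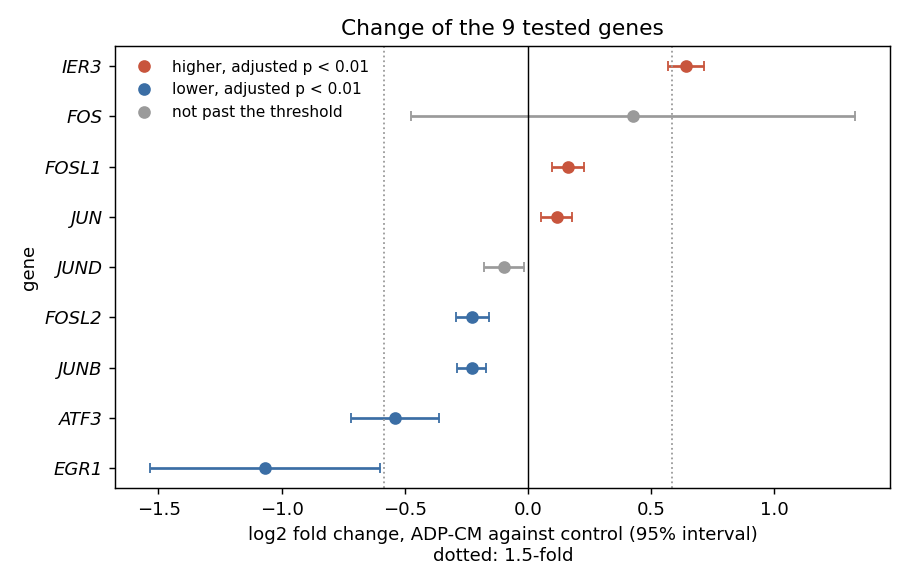
Log2 fold change (ADP-CM against control, horizontal axis) of the 9 tested genes with its 95% interval from edgeR's fit, 3 libraries a group, and dotted lines at a 1.5-fold change. IER3 lies farthest to the right among the genes past the threshold at 0.64 and EGR1 farthest to the left at -1.07, while the intervals of FOSL1, JUN, JUNB and FOSL2 are narrow and stay well inside the dotted lines.

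Per kilobase of exon the genes differed widely in level. In control the order from high to low was JUNB, FOSL1, IER3, JUND, JUN, FOSL2, ATF3, EGR1, FOS and FOSB. JUNB stood at 91.3 ± 3.05 RPKM (CPM per kilobase of exon, SD, n = 3) and FOSB at 0.0717 ± 0.0119. The libraries of JUND (34.8 ± 0.583 RPKM) and JUN (34.4 ± 0.915) overlapped, as did those of FOS (0.13 ± 0.0832) and FOSB, and the order of JUND and JUN turned when the longest transcript was used as the length. The other neighbours in this order did not overlap. In ADP-CM, IER3 came first at 81.2 ± 3.56 RPKM and overlapped JUNB at 77.9 ± 2.35, and JUN stood above JUND without overlap. ATF3, EGR1, FOS and FOSB kept the lowest places in both groups.

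**Figure D2:**
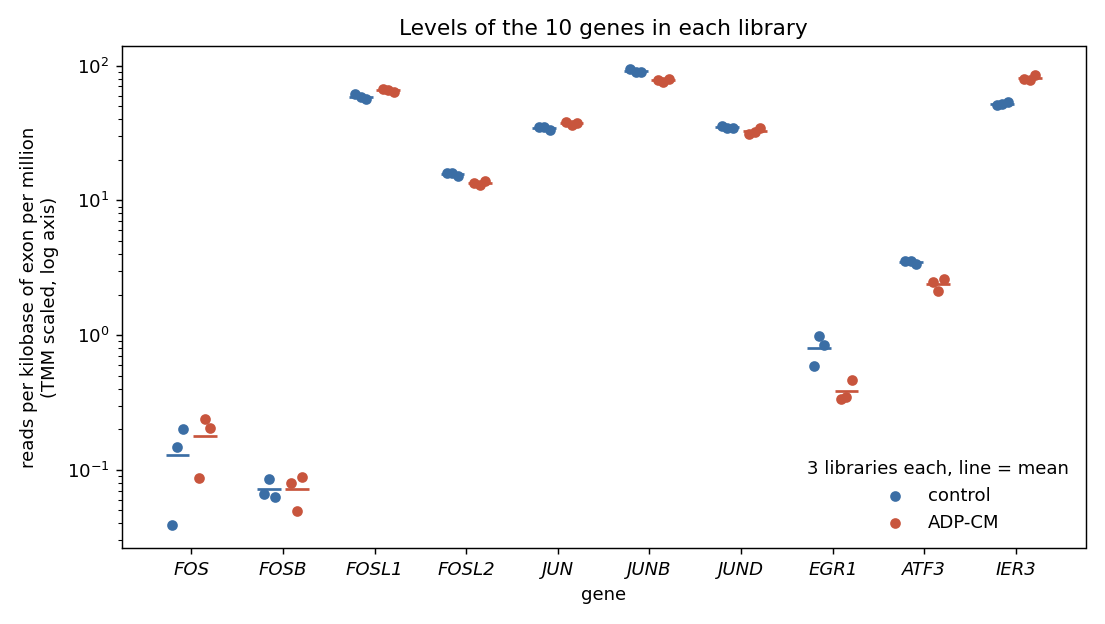
Level of each gene in every library, in RPKM after TMM scaling on a log axis, with the 3 control libraries in blue, the 3 ADP-CM libraries in red and lines at the group means. FOS and FOSB lie below 1 RPKM in all 6 libraries, while FOSL1, JUN, JUNB, JUND and IER3 lie above 30 RPKM.

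FOSL1 (chromosome 11, 65659520 to 65668044, GRCh37), which encodes FRA-1, a FOS protein linked to invasion in carcinoma cells, was the main FOS family transcript. It read 115.5, 109.7 and 105.9 CPM in control replicates 1, 2 and 3, and 126.3, 123.9 and 120.2 CPM in the ADP-CM replicates. All ADP-CM libraries lay above all control libraries. This was a rise of 11.9%, or 0.16 ± 0.033 (SE) on the log2 scale, with an edgeR adjusted p of 5.13e-05.

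FOSL2 (chromosome 2, 28615315 to 28640184), which encodes FRA-2, went the other way. Its control libraries read 114.5, 114.8 and 109.4 CPM, and its ADP-CM libraries 96.6, 93.7 and 99.4. The groups were well separated, by -0.23 ± 0.033 (SE) on the log2 scale (edgeR adjusted p = 1.06e-07).

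FOS (chromosome 14, 75745529 to 75748933), the founding member of the family, was close to silent, with 2, 8 and 11 reads in control replicates 1, 2 and 3 against 5, 14 and 12 under ADP-CM. The groups overlapped, and control replicate 1 was the lowest of all. Its log2 fold change of 0.43 had a 95% interval of -0.47 to 1.33 (edgeR adjusted p = 0.488), and it ran from 0.02 (without control replicate 1) to 0.89 (without control replicate 3) when single libraries were left out. Summed over libraries, 21 against 31 reads gave a rate ratio of 1.35 with an exact counting interval of 0.754 to 2.48. FOSB (chromosome 19, 45971253 to 45978437) had 6, 8 and 6 reads in control and 5 to 9 in ADP-CM. Its rate ratio was 1.01, with an exact counting interval of 0.526 to 1.95, so a change within that range was not detectable at this depth. With no filter on low counts, edgeR gave FOSB a log2 fold change of 0.01 (adjusted p = 0.989). These intervals cover counting error only, since reads carry no molecular identifiers.

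JUN (chromosome 1, 59242517 to 59249720), which encodes the c-Jun protein and is itself an AP-1 target through its promoter, read 125.9, 127.2 and 120.9 CPM in control. In ADP-CM it read 138.3, 130.8 and 136.7 CPM. The groups did not overlap, but the gap between control replicate 2 and ADP-CM replicate 2 was small. The change was 0.12 ± 0.031 (SE) on the log2 scale (edgeR adjusted p = 0.00184). That call was lost without control replicate 3 (adjusted p-value 0.0313, edgeR), without ADP-CM replicate 1 (0.0277) and with DESeq2 (0.0183).

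JUNB (chromosome 19, 12902300 to 12904129), a JUN family protein that often opposes c-Jun, was lowered. The control libraries held 173.4, 164.9 and 162.9 CPM and the ADP-CM libraries 143.5, 137.9 and 146.3, with a clear gap between the groups. The difference was -0.23 ± 0.030 (SE) on the log2 scale (edgeR adjusted p = 3.79e-09). In the annotation 14.2% of the exonic bases of JUNB lie opposite HOOK2. It had 749 to 824 reads in control and 894 to 920 in ADP-CM, not scaled for the greater depth of the ADP-CM libraries. The strand setting of the counting is not given in the sources used here, so reads in that stretch are uncertain.

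JUND (chromosome 19, 18390504 to 18392432), the most steadily expressed JUN gene in many cells, read 68.4, 66.5 and 66.4 CPM in control and 59.6, 62.0 and 66.5 CPM in ADP-CM. ADP-CM replicate 3 lay among the controls and the other two lay below them. The log2 fold change of -0.10 had a 95% interval of -0.18 to -0.02 and missed the threshold (edgeR adjusted p = 0.0548). Without ADP-CM replicate 3 it was -0.14 with an adjusted p-value of 0.00634 by the same edgeR test.

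The make-up of both families at the RNA level was described per kilobase of exon, without a test. FOSL1 made up 78.5% ± 0.563 of FOS family RPKM in control and 82.6% ± 0.742 of it under ADP-CM (n = 3 per group, SD). FOSL2 made up 21.2% ± 0.453 and 17.0% ± 0.696. FOS and FOSB together held the small rest, with FOS at 0.177% ± 0.117 and 0.225% ± 0.103. The FOS family in these cells was thus almost entirely FOSL1 and FOSL2 RNA in both groups. In the JUN family, JUNB held 56.9% ± 0.515 in control and 52.7% ± 0.384 in ADP-CM, and JUN 21.4% ± 0.481 and 25.3% ± 0.55. JUND held 21.7% ± 0.245 and 22.0% ± 0.914, with overlapping libraries. Summed FOS family level was 74.5 ± 2.82 RPKM in control and 79.2 ± 1.36 in ADP-CM, and summed JUN family level 160.4 ± 4.14 and 147.7 ± 4.3. For FOSL1, FOSL2, JUN and JUNB the shares in the ADP-CM libraries did not overlap those in control.

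**Figure D3:**
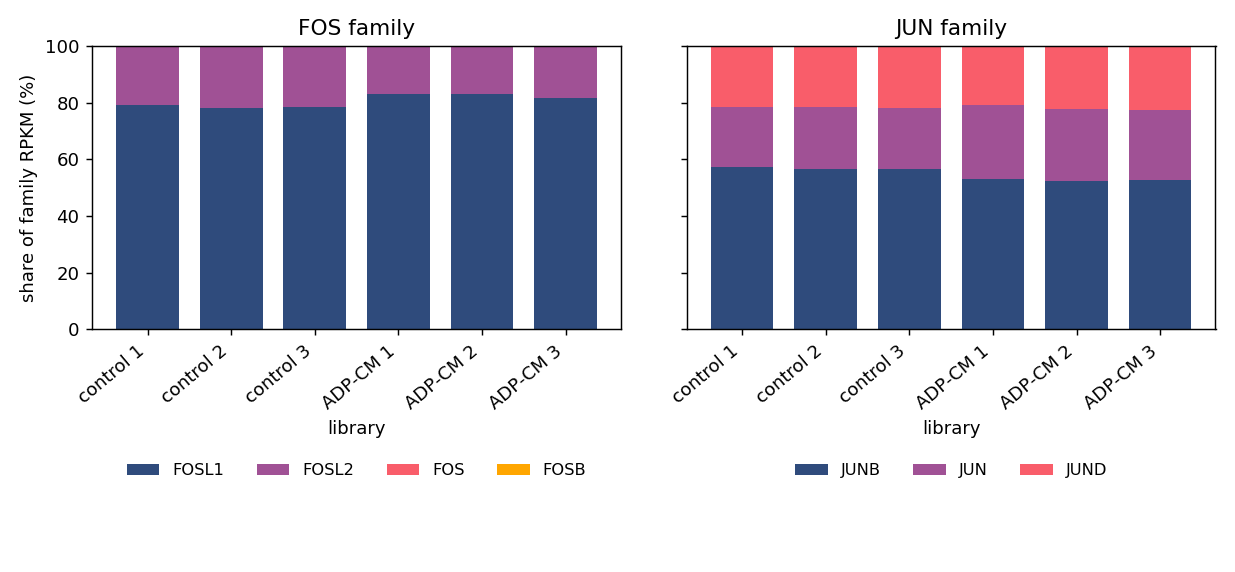
Share of each gene in its family's summed RPKM (vertical axis, percent) in each of the 6 libraries, for the FOS family on the left and the JUN family on the right. FOSL1 takes 78.1% to 79.2% in control and 81.8% to 83.1% in ADP-CM, JUN takes 21.1% to 22.0% and 24.8% to 25.9%, and the FOS and FOSB layers are too thin to see.

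EGR1 (chromosome 5, 137801168 to 137804992), whose CArG boxes are shown above, had the largest fold difference of the 9 tested genes, at a low level. Control replicates 1, 2 and 3 gave 30, 52 and 45 reads and the ADP-CM replicates 19, 20 and 27, or 1.85, 3.08 and 2.63 CPM against 1.05, 1.09 and 1.47 CPM. All ADP-CM libraries were below all control libraries, with control replicate 1 the nearest. The difference was -1.07 ± 0.23 (SE) on the log2 scale (edgeR adjusted p = 0.000176). Leaving out single libraries gave values between -1.24 and -0.90. The call was kept but came near the threshold of 0.01 without control replicate 2 (adjusted p-value 0.00751, edgeR) and with DESeq2 (0.00775).

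ATF3 (chromosome 1, 212738676 to 212794119), a stress-induced factor of the ATF family that pairs with JUN proteins and often represses its targets, was also lowered. Control libraries held 14.2, 14.3 and 13.4 CPM and ADP-CM libraries 9.89, 8.51 and 10.4. The groups were separate, by -0.54 ± 0.090 (SE) on the log2 scale (edgeR adjusted p = 1.45e-06). At 1.45-fold lower it did not reach the fold limit of 1.5.

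IER3 (chromosome 6, 30710976 to 30712325) had the smallest p-value of the 10 genes. It read 68.5, 70.0 and 71.9 CPM in control and 108.1, 105.7 and 114.9 CPM in ADP-CM. The lowest ADP-CM library was far above the highest control library. The rise was 1.56-fold, or 0.64 ± 0.036 (SE) on the log2 scale (edgeR adjusted p = 1.5e-23). It stayed between 0.61 and 0.67 when each library was left out. In the annotation 38.9% of its exonic bases lie opposite IER3-AS1 and HCG20, which were not analysed here, so reads from them cannot be told apart from those of IER3 if strand was not used.

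The profiles most like those of the extreme genes were sought over the 6 libraries among 10544 tested genes of at least 5 CPM. Each profile was taken minus its control mean, so a small difference mostly reflects a like fold change. Shared regulation was not tested. IER3 was followed most closely by HAS3, COL5A1 and PDE10A, with root mean square differences of 0.0451, 0.0469 and 0.0505 on the log2 scale. HAS3, a hyaluronan synthase, averaged 148.8 CPM in control and 230.7 in ADP-CM. EGR1 was followed by C10orf116, ID4 and HMGCS1, with larger differences of 0.217, 0.252 and 0.271. EGR1 had only 19 to 52 reads in a library, and the part of counting noise in these differences was not tested. ID4, an inhibitor of basic helix-loop-helix factors, averaged 45.8 CPM in control and 21.9 in ADP-CM.

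The other genes of the pathway were read from 7 lists, whose counts stand beside the 13.5% raised and 13% lowered of all tested genes and their median log2 fold change of -0.0023. Among 8 tested AP-1 partners, 1 was raised and 1 lowered, a share near the 26.5% of all tested genes, with a median of 0.05. JDP2, a partner of JUN proteins that represses AP-1, fell from 76.1 ± 0.943 to 66.8 ± 1.2 CPM (n = 3 per group, SD), by log2 -0.19 (edgeR adjusted p = 4.17e-05). BATF3, a JUN partner known from dendritic cells, rose from 6.2 ± 0.832 to 8.82 ± 0.834 CPM, a log2 fold change of 0.51 (edgeR adjusted p = 0.000321), and was not past the threshold with DESeq2. MAFF and MAFG, small MAF proteins, had log2 fold changes of 0.15 and 0.07 and were not past it.

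Of the EGR and NAB genes only NAB1 and NAB2, corepressors of EGR proteins, could be tested. NAB1 rose from 51.0 ± 0.597 to 57.5 ± 0.781 CPM (n = 3 per group, SD), by log2 0.17 (edgeR adjusted p = 0.00074), a call not made by DESeq2. NAB2 had a log2 fold change of 0.11 and was not past the threshold. EGR2, EGR3 and EGR4, named here after their values were seen, had at most 2 reads in any library, under the limit of 3 reads taken for detection.

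Among 25 tested immediate early genes outside the set, 5 were raised and 7 lowered, with a median log2 fold change of -0.03. Of all tested genes 13.5% were raised and 13% lowered. SGK1, a serum- and glucocorticoid-induced kinase, rose from 18.2 ± 1.17 to 33.0 ± 0.456 CPM (n = 3 per group, SD), by log2 0.86 (edgeR adjusted p = 1.35e-18). CYR61, now CCN1, a matricellular protein, rose by 0.15 on the log2 scale from 438.3 ± 4.39 CPM. IER2 and IER5L, nuclear proteins of the same response, fell by 0.30 and 0.32 on the log2 scale, from 109.7 ± 3.06 and 88.1 ± 3.73 CPM. The number raised was 3 without control replicate 1, 2 or 3 or ADP-CM replicate 1, and the number lowered was 4 without control replicate 2. With DESeq2 the counts were 3 and 4.

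Upstream of these genes, 1 of SRF and 5 of its cofactors was raised, where 26.5% of all tested genes changed. ELK3, a ternary complex factor that can repress SRF targets, rose from 48.9 ± 0.9 to 63.0 ± 3.86 CPM (n = 3 per group, SD), by log2 0.37 (edgeR adjusted p = 3.6e-10). ELK1, ELK4 and MKL1 had log2 fold changes of -0.08, -0.02 and 0.02, and SRF itself was at 86.5 ± 4.72 and 85.9 ± 1.88 CPM. Of the 24 RAS, RAF and MAP kinase genes, 2 were raised and 1 lowered, with a median of -0.04, and a looser threshold of 0.05 gave 3 and 2. RPS6KA3, the ERK-activated kinase RSK2, rose by 0.16, MAP2K3, an activator of p38, rose by 0.13, and HRAS fell by 0.14 on the log2 scale. MAP2K7, an activator of JNK, stood at 0.13 with an adjusted p-value of 0.011 (edgeR). The number raised was 1 without control replicate 2, and the number lowered was 0 without control replicate 1 or 2 or ADP-CM replicate 3 and with DESeq2.

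Of 18 genes known as AP-1 targets, 12 were tested, and 7 were raised and 2 lowered, with a median of 0.21 on the log2 scale. The untested genes, MMP1, MMP3, MMP9, MMP10, MMP13 and SPRR1A, named here after their values were seen, had at most 8 reads in any library. The shares over all tested genes were 13.5% raised and 13% lowered. Because the list was chosen with earlier results of these data known, its counts and median are a description only. CD44, the hyaluronan receptor, rose from 304.2 ± 3.99 to 411.4 ± 1.75 CPM (n = 3 per group, SD), by log2 0.44 (edgeR adjusted p = 5.86e-26). VEGFA, the angiogenic growth factor, rose from 69.8 ± 0.0436 to 91.3 ± 0.341 CPM, by log2 0.39 (edgeR adjusted p = 3.64e-14). IVL, which encodes the cornified envelope protein involucrin, fell from 26.3 ± 0.783 to 14.7 ± 0.202 CPM, a log2 fold change of -0.84 (edgeR adjusted p = 1.13e-16). The number lowered was 1 without control replicate 2 or 3 or ADP-CM replicate 1, and with DESeq2. These genes answer to many other factors as well.

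ATF3 is a known target of ATF4 in the integrated stress response, and 12 genes of that response were tested. ATF4 rose from 302.1 ± 6.66 to 340.4 ± 6.82 CPM (n = 3 per group, SD), by log2 0.17 (edgeR adjusted p = 9.54e-09), while ATF3 was lowered. In all 4 were raised and 2 lowered, beside 13.5% and 13% of all tested genes. The raised genes included SESN2 and ASNS, an inhibitor of mTORC1 signaling and asparagine synthetase, with log2 fold changes of 0.32 and 0.24. ATF5, another factor of this response, fell by 0.61 on the log2 scale and was 1 of 2 lowered genes. The number lowered was 1 without control replicate 1 or 3 or ADP-CM replicate 1 or 2, and with DESeq2. The median was 0.04.

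**Figure D4:**
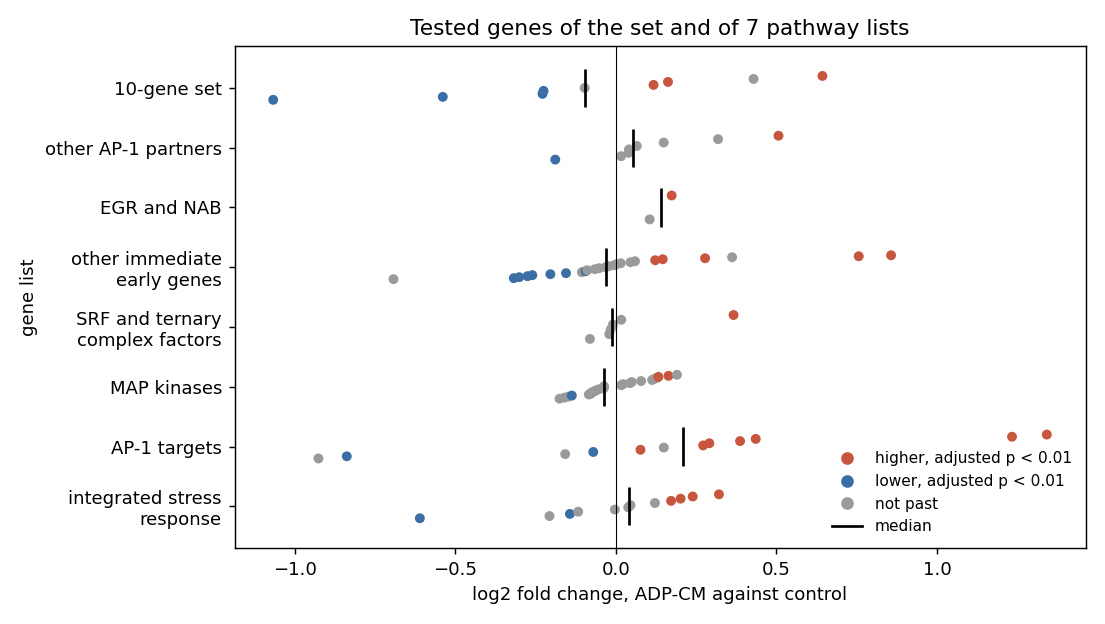
Log2 fold change (horizontal axis) of every tested gene of the 10-gene set and of 7 pathway lists, with red for raised, blue for lowered and grey for not past an adjusted p-value of 0.01, and a black bar at each median. The AP-1 targets have the highest median, 0.21. The medians of the MAP kinases and SRF factors lie near 0, with ELK3 of the SRF factors at 0.37.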

How the data were processed

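Poly(A) RNA of RL95-2 cells was read as 50 bp single reads on stranded libraries, 3 control and 3 ADP-CM. Alignment to hg19 was done by the authors with TopHat2 and counting on RefSeq genes with HTSeq, and the deposited values are raw read counts per gene, not normalized. HTSeq drops reads with several alignments. Of its 5 summary lines, the 3 for no feature, ambiguous and not uniquely aligned reads together held 31.4% to 33.0% of reads. None of the 5 lines names a gene, and none entered library sizes or tests. Program versions and the strand setting are not given in the sources used here.

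Counts were analysed in R 4.3.3 with edgeR 4.0.16 (TMM, filterByExpr, quasi-likelihood test, 12663 genes kept). Standard errors were taken from the F statistic. The common biological coefficient of variation was 1.67%. No pair of replicates was as alike as sampling noise alone would make it. RPKM used the union of exons in GENCODE 44 on GRCh37, the same build as hg19, and promoter windows came from RefSeq on GRCh38.p14. Alternatives were DESeq2 1.42.0, other scalings, filters and thresholds, the replicate number as a block, and each library left out. Both edgeR and DESeq2 were first run on simulated counts with a single fixed spread and changes planted only in well-read genes. That run is no check of the calls for genes with few reads, such as FOS and EGR1.

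The 10 genes and the lists were chosen with earlier results of these data known. Named in the text are the 10 genes, from each list up to 4 genes by smallest p, and the 3 nearest profiles of the most raised and most lowered gene. A gene that this rule names is not reported here. The fold limit of 1.5 and the adjusted p-value of 0.01 were the study's.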

Additional observations from a re-analysis of the deposited data

How the results depend on the processing

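All 7 changed genes kept their direction under every alternative run, and of 115 refits of single genes 3 lost a call, all for JUN, and 1 gained one, for JUND. DESeq2 called 1030 raised and 953 lowered genes in place of 1707 and 1650, and 83 and 93 past the fold limit in place of 144 and 144. It also lowered 7 genes over the 7 lists in place of 13. Leaving out each library gave 1347 to 1632 raised and 1281 to 1574 lowered genes, 127 to 140 and 124 to 154 past the fold limit, 2 to 3 raised and 4 to 5 lowered among the 10 genes, and 18 to 20 raised and 8 to 12 lowered over the lists, with 8 lowered without control replicate 2. The cause was not tested. The ADP-CM minus control difference in family share ran from 3.88 to 4.53 percentage points for FOSL1 and from 3.52 to 4.09 for JUN, and with the longest transcript as the length it was 3.98 and 4.04.

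Same-numbered libraries correlated in their deviations from the group means by 0.00405 to 0.102. Pairing was taken only where every such correlation passed 0.1, so the numbers were not used as pairs, although 5 of 6 libraries correlated best with their own number, a hint from the data. With the replicate number as a block 1786 genes were raised and 1716 lowered, 151 and 146 past the fold limit, 3 and 4 of the 10 genes and 21 and 13 over the lists. Depth limits FOS, FOSB and EGR1, with 52 reads or fewer in every library.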
